A study of Homo sapiens with 16 samples.

Results

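GTF2I was silenced by siRNA on 1 of the 16 expression arrays of this series, and that array is described here against the other 15. All 16 arrays held RNA of GIST-T1 cells, a human gastrointestinal stromal tumor (GIST) cell line driven by mutant KIT, grown in serum and reverse transfected with siRNA at 50 nM. The GTF2I array came from cells that received siRNA against GTF2I, which the deposited label spells GTF21. The other 13 knockdown arrays came from cells with siRNA against IGF2R, IGFBP2, RASSF8 or 1 of 10 zinc finger genes, namely ZNF708, ZNF665, ZNF528, ZNF431, ZNF429, ZNF254, ZNF100, ZNF91, ZNF85 and ZNF43, 1 array each. The 2 reference arrays came from cells transfected with siCON, a non-targeting siRNA, and are labelled 24 h and 72 h (replicates 1 and 2), although a legend of the study gives a later hour for replicate 1, so its harvest time is not settled. No source used here states when the cells of the knockdown arrays were harvested, so time after transfection and knockdown cannot be told apart. All cells share 1 tumor cell line, and no source used here lists the siRNA sequences, so effects of the siRNA other than on GTF2I cannot be told apart from loss of GTF2I.

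GTF2I encodes TFII-I, a multifunctional transcription factor that binds initiator elements and E-boxes, links growth factor and calcium signals to transcription, and also acts in the cytoplasm. Its gene lies in the 7q11.23 region that is lost in Williams-Beuren syndrome, beside the related genes GTF2IRD1 and GTF2IRD2. In GIST the KIT receptor, the channel ANO1 and the transcription factor ETV1 mark the cell of origin, the interstitial cell of Cajal lineage. On the GTF2I array KIT measured 13.49, the progenitor antigen CD34 13.30 and ETV1 11.93 on the log2 scale, and these genes and ANO1 were within the range of the other 13 knockdown arrays. Not all such genes were, since the GIST marker PRKCQ was highest of 16 on the GTF2I array, by 0.36. Of 15 measured genes of KIT and GIST identity, 2 were highest there (13.3%, against 4.47% of all measured genes). In the same list 1 was lowest (6.67%, against 5.38%).

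Values are log2 expression estimates of 22011 transcript clusters, on which a difference of 1 is a 2-fold change. With 1 GTF2I array there is no replicate, and a place as the highest or lowest of 16 arrays cannot reach an exact two-sided p below 0.125, so the values below are descriptions of this array without a test. Each gene is therefore read in 2 ways, by its difference from the siCON mean and by its distance beyond the whole range of the other 15 arrays. The second measure separates values seen on the GTF2I array alone from those that other knockdown arrays also reached.

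The cluster of GTF2I measured 8.57 on the GTF2I array, between 10.52 and 11.05 (median 10.85) on the other 13 knockdown arrays, and 10.93 and 10.88 on the siCON arrays. The GTF2I array lay apart from all others, 1.95 below the lowest of them, and this was the largest distance beyond the other arrays, in either direction, of all 22011 clusters. The difference from siCON was −2.34. The annotation also gives this cluster to the pseudogenes GTF2IP1 and GTF2IP4, whose transcripts cannot be told apart from GTF2I here. GTF2IRD1, the related gene next to GTF2I, was dim and measured 5.61 on the GTF2I array, 5.06 to 6.52 on the other knockdown arrays (median 5.80), and 5.77 and 5.50 on the siCON arrays, so the groups overlapped. Of the 12 other silenced genes that a cluster named, 10 were lowest on their own array. Among the 10, ZNF528 and ZNF665 were dim and close to siCON. ZNF528 measured 4.54 on its own array and 4.65 and 4.80 on the siCON arrays, and ZNF665 3.29 against 3.46 and 3.48. Some of the 12 clusters also name another gene, such as ZNF66 for ZNF85. On the GTF2I array, where none of these 12 genes was targeted, ZNF91 was 3rd lowest of 16 and differed from siCON by −1.26, ZNF43 was 2nd lowest with −0.60, and IGF2R 2nd lowest with −0.79. ZNF91, which shares its cluster with ZNF725P, measured 5.59 on the GTF2I array, 4.67 to 7.29 on the other knockdown arrays (median 6.35), and 6.87 and 6.84 on the siCON arrays, and overlapped the other knockdowns. IGF2R, which clears IGF2 and sorts lysosomal enzymes, measured 10.14 on the GTF2I array, 8.71 to 11.13 on the other knockdown arrays (median 10.90), and 10.91 and 10.95 on the siCON arrays. Only the IGF2R array itself was lower than the GTF2I array for this gene.

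The GTF2I array was the lowest of 16 for 1289 clusters (5.86%) and the highest for 910 (4.13%). Of all clusters, 51 lay at least 0.5 below every other array on the GTF2I array (0.232% of clusters) and 10 lay at least 0.5 above every other array (0.0454%). Decreases thus outnumbered increases. Of the 51, 27 carried 1 gene symbol and 22 none, and 36 were also lower than siCON by 1 or more. Of the 10, 9 carried 1 symbol, and 7 were also higher than siCON by 1 or more. The same count for clusters below the rest was 192 on the IGF2R array, 82 on the RASSF8 array and 58 on the IGFBP2 array, and 10 and 9 on the siCON arrays, so GTF2I ranked 4th of 16. For clusters above the rest the GTF2I array, with 10, shared the next to lowest place with the ZNF91 array, while the ZNF431 array had 96 and the siCON arrays 19 and 17. Without the ZNF85 array, 16 clusters lay above the rest on the GTF2I array. The last gene inside the distance of 0.5 was SVBP at 0.503 below and RUNDC3A at 0.536 above, and the first outside it was TCTN2 at 0.488 below and KCNC1 at 0.487 above.

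**Figure D1:**
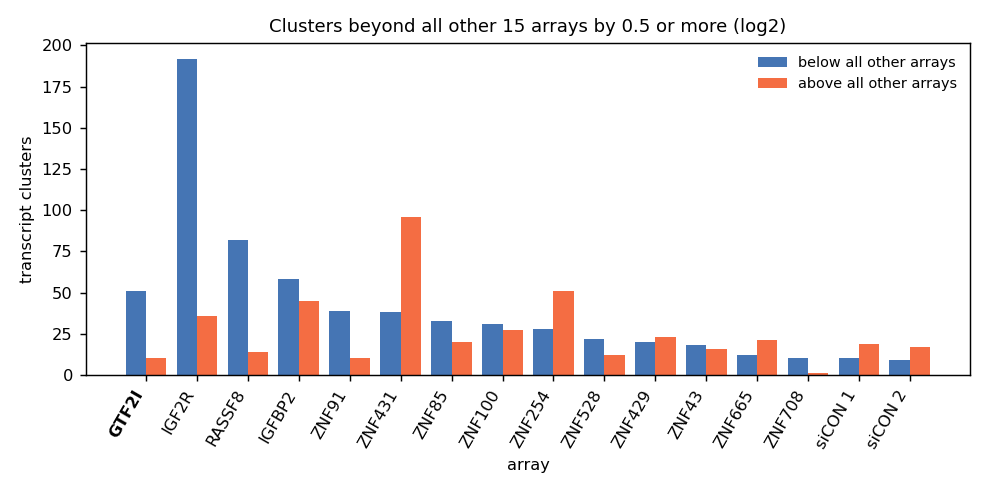
Number of transcript clusters that lie at least 0.5 (log2) below (blue) or above (orange) all other 15 arrays, for each array, with GTF2I at the left, the other knockdowns in falling order of the blue bars and siCON at the right. GTF2I has 51 below and 10 above, IGF2R 192 below, and ZNF431 96 above.

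The genes farthest below the other arrays were led by HNRNPH2, ZMAT2 and USP11. The 15 described here, and the 15 farthest above, are the most distant with 1 gene symbol whose GTF2I or siCON level reached the median of all values, 7.80. On the lower side 2 of the 15 (ATXN3 and EIF1B) passed this limit through siCON alone. All 15 were chosen for lying below every other array, so their place is a description. HNRNPH2, an RNA-binding regulator of splicing on the X chromosome, measured 8.91 on the GTF2I array, 10.00 to 10.73 on the other knockdown arrays (median 10.22), and 10.25 and 10.48 on the siCON arrays. It lay 1.09 below every other array, with a difference from siCON of −1.46. ZMAT2, a zinc finger protein of the spliceosome, measured 8.59 on the GTF2I array, 9.64 to 10.10 on the other knockdown arrays (median 9.88), and 9.97 and 10.16 on the siCON arrays. RBM22, which sits at the catalytic core of the spliceosome, measured 8.82 on the GTF2I array, 9.58 to 10.27 on the other knockdown arrays (median 10.03), and 10.31 and 10.33 on the siCON arrays. The GTF2I array did not overlap the other arrays for these 3 genes, which differed from siCON by −1.46, −1.48 and −1.50.

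NDUFS3, a core subunit of respiratory complex I, measured 9.81 on the GTF2I array, 10.74 to 11.53 on the other knockdown arrays (median 11.17), and 10.82 and 11.19 on the siCON arrays. AIFM1, a flavoprotein needed for complex I assembly that can also carry a death signal to the nucleus, measured 8.39 on the GTF2I array, 9.23 to 9.65 on the other knockdown arrays (median 9.46), and 9.51 and 9.55 on the siCON arrays. They lay 0.92 and 0.84 below all others, with differences from siCON of −1.19 and −1.14. CPT1A, the enzyme that commits long-chain fatty acids to mitochondrial oxidation, went against the other knockdowns. It measured 8.51 on the GTF2I array, 9.23 to 10.21 on the other knockdown arrays (median 9.70), and 9.14 and 9.21 on the siCON arrays, so that every other knockdown was above both siCON arrays and GTF2I alone below them.

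USP11, a deubiquitinase on the X chromosome, measured 9.77 on the GTF2I array, 10.70 to 11.08 on the other knockdown arrays (median 10.86), and 11.08 and 11.17 on the siCON arrays. It lay 0.93 below every other array. ATXN3, another deubiquitinase, differed from siCON by −1.03, the ubiquitin ligase AREL1 by −0.95 and the proteasome subunit PSMB6 by −0.95. These 3 lay between 0.59 and 0.68 below all other arrays. RGS2, which limits signalling by Gq-coupled receptors, measured 10.15 on the GTF2I array, 10.84 to 11.85 on the other knockdown arrays (median 11.21), and 11.30 and 11.23 on the siCON arrays. The other 4 were the zinc finger gene ZNF146 (−0.93 from siCON), the translation initiation factor gene EIF1B (−1.41), WDR6 (−1.05) and the nucleotidase gene ENTPD6 (−0.96). In all 15 the median of the other 13 knockdowns stayed between −0.31 and 0.52 of siCON.

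**Figure D2:**
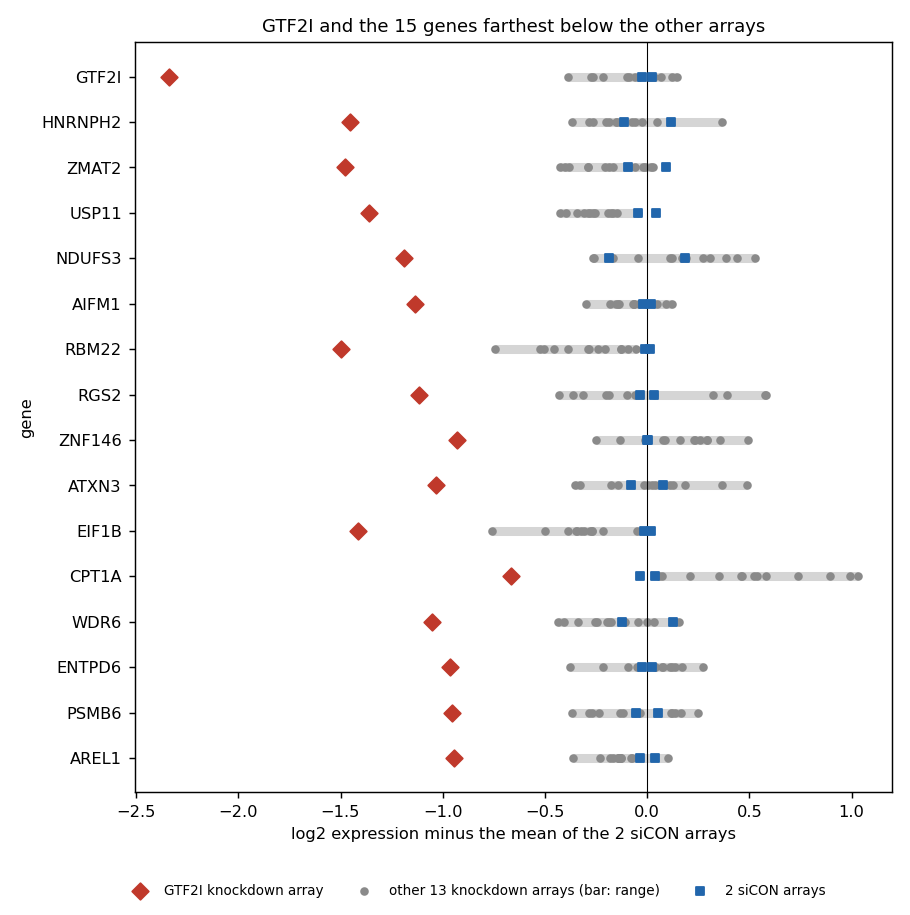
Log2 expression minus the mean of the 2 siCON arrays for GTF2I and the 15 named genes farthest below the other arrays; red diamonds are the GTF2I array, grey points the other 13 knockdown arrays with their range as a bar, and blue squares the 2 siCON arrays. In every row the diamond lies left of all other points, from −2.34 for GTF2I to −0.66 for CPT1A.

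TFII-I and USF1 bind the E-box CACGTG, so the promoters of the genes above were searched for these letters in RefSeq windows on GRCh38.p14, from 250 bases before to 50 bases after the start of each gene. The sequence reads the same on both strands. It occurred in the windows of 4 of the 13 genes that had one (HNRNPH2, EIF1B, WDR6 and ENTPD6), in 11.3% of the measured genes with a window and in 7.26% of all 35116 windows. Over all genes below the other arrays by 0.25 or more the share was lower, 21 of 130 (16.2%), and among the genes farthest above it was 1 of 9 (FJX1). HNRNPH2, the gene farthest below after GTF2I, held it at 2 places close to its start, and EIF1B at 1. Both stretches are shown 5′ to 3′ on the gene's strand with the E-box in capitals, HNRNPH2 from chrX:101408158-101408221 (plus strand, bases −64 to −1) and EIF1B from chr3:40309631-40309680 (plus strand, bases −76 to −27).
HNRNPH2: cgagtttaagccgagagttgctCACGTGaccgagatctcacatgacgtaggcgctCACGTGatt
EIF1B: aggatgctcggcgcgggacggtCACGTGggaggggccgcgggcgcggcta
A match of these letters is a description and says nothing of binding in these cells.

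The genes farthest above the other arrays were led by CALB1, AP3B2, TMEM65 and GDAP1. Under the same limit of 7.80, 8 of the 15 (CALB1, AP3B2, TMEM65, GDAP1, RUNDC3A, CEACAM1, PENK and CHRNB2) passed through the GTF2I array alone, so they were chosen by the array on which they are high. Without the limit 26 genes lay at least as far above, among them the dim gene SCG3 described below. CALB1, the calcium buffer calbindin, measured 8.07 on the GTF2I array, 5.50 to 6.27 on the other knockdown arrays (median 5.92), and 6.93 and 6.92 on the siCON arrays. The GTF2I array was the only knockdown above siCON, by 1.14, while the median of the other 13 was 1.01 below siCON. AP3B2, the neuronal subunit of the AP-3 adaptor that sorts synaptic vesicle cargo, measured 8.82 on the GTF2I array, 7.45 to 7.84 on the other knockdown arrays (median 7.59), and 7.35 and 7.24 on the siCON arrays. It lay 0.98 above every other array.

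GDAP1, a mitochondrial membrane protein of neurons linked to inherited neuropathy, measured 8.76 on the GTF2I array, 6.49 to 8.03 on the other knockdown arrays (median 6.99), and 6.93 and 6.97 on the siCON arrays. Its difference from siCON, 1.81, was the largest of the 15, and the nearest array was that of ZNF85. TMEM65, a mitochondrial membrane protein, measured 8.18 on the GTF2I array, 6.73 to 7.42 on the other knockdown arrays (median 7.05), and 6.98 and 6.94 on the siCON arrays. The potassium channel gene KCNC1 differed from siCON by 1.24, RUNDC3A by 1.34, the nicotinic receptor gene CHRNB2 by 1.10 and the opioid precursor gene PENK by 0.91. All 4 were above every other array, by 0.41 to 0.54, and the other knockdowns stood above siCON as well, with medians of 0.37, 0.36, 0.22 and 0.12.

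MDM2, the ubiquitin ligase of p53, measured 11.86 on the GTF2I array, 10.96 to 11.39 on the other knockdown arrays (median 11.23), and 11.45 and 11.33 on the siCON arrays. It was the only one of 24 measured p53 targets that was highest on the GTF2I array (4.17%, against 4.47% of all measured genes). BAX and TP53INP1 were lowest there by 0.02 each (8.33%, against 5.38%). In a list this short these counts are close to the shares of all measured genes. PRKCQ, the protein kinase C theta used as a GIST marker, measured 9.87 on the GTF2I array, 8.73 to 9.51 on the other knockdown arrays (median 9.27), and 9.12 and 8.91 on the siCON arrays. RERG, a small GTPase that restrains growth, and FJX1, a secreted regulator of planar polarity in Drosophila under the name four-jointed, were higher than siCON by 0.49 and 0.63 while the medians of the other knockdowns differed from siCON by −0.56 and −0.21. The adhesion receptor gene CEACAM1 differed from siCON by 1.17. Of the 15 genes, 4 lie on chromosome 8 (CALB1, GDAP1, PENK and TMEM65), a count made after the values were seen, against 3.67% of all measured genes. All 4 passed the limit on level through the GTF2I array alone. Without that limit, 4 of 523 measured genes on chromosome 8 lay above the other arrays by 0.25 or more, and 6 of 964 on chromosome 11.

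**Figure D3:**
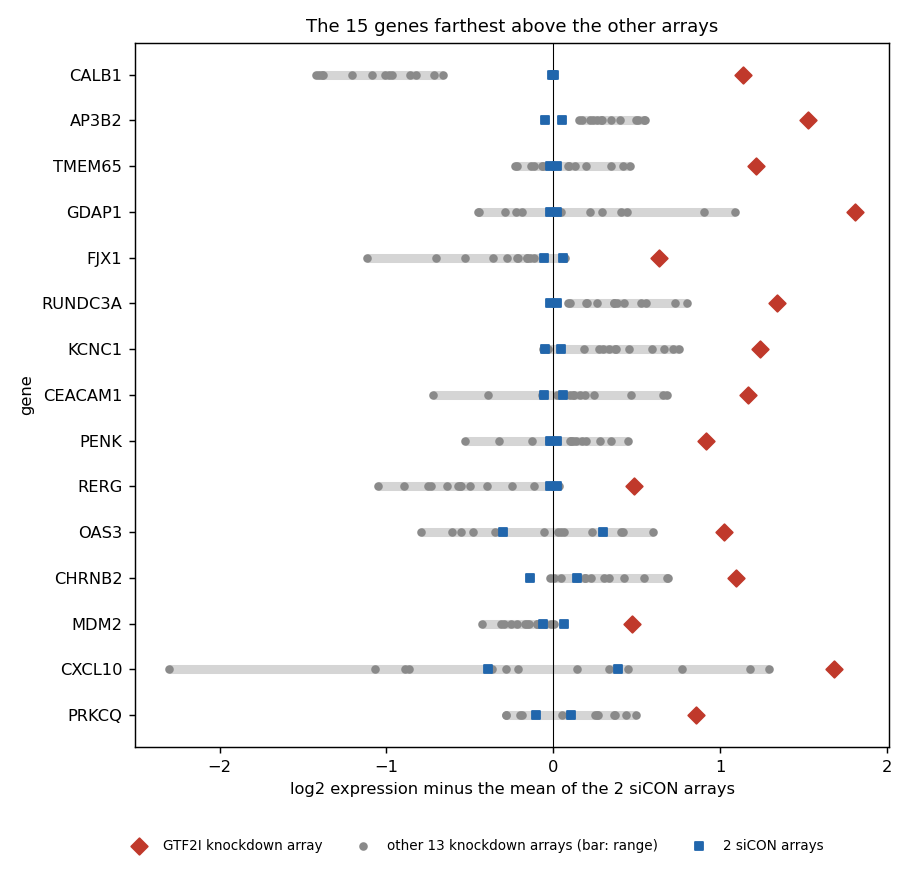
Log2 expression minus the mean of the 2 siCON arrays for the 15 named genes farthest above the other arrays; red diamonds are the GTF2I array, grey points the other 13 knockdown arrays with their range as a bar, and blue squares the 2 siCON arrays. The diamond lies right of all other points in every row, by the widest margin for CALB1 (1.13) and AP3B2 (0.98).

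Interferon-induced genes were high on the GTF2I array as a group, though not on that array alone. Of 32 listed genes 28 were measured, of which 25 were higher than siCON, where 60.4% of all measured genes were. The list median was 0.42 above siCON, against 0.11 for all measured genes. On 7 of the 28 the GTF2I array was the highest of 16, against 4.47% of all measured genes, and on 0 it was the lowest. The list medians of the ZNF85 and IGFBP2 arrays were as high, 0.42 and 0.41, the IGF2R array was lowest at −0.44, and the siCON arrays stood at 0.14 and −0.14, so these genes varied widely among arrays of every kind.

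CXCL10, a chemokine that draws T cells, measured 12.24 on the GTF2I array, 8.25 to 11.84 on the other knockdown arrays (median 10.34), and 10.94 and 10.16 on the siCON arrays. OAS3, an enzyme that activates RNase L on double-stranded RNA, measured 10.50 on the GTF2I array, 8.68 to 10.08 on the other knockdown arrays (median 9.50), and 9.78 and 9.18 on the siCON arrays. The GTF2I array was above all others for both, by 0.39 and 0.42, and the siCON arrays themselves differed for both. IFIT3, an interferon-induced antiviral protein, differed from siCON by 0.92, the antiviral GTPase gene MX1 by 0.56, OAS1 by 1.06, the RNA sensor gene IFIH1 by 0.63 and the transcription factor gene IRF9 by 0.33, all highest on the GTF2I array by 0.03 to 0.31. CXCL10, OAS1 and OAS3 were the 3 members at or above a difference of 1 (0.436% of all measured genes).

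The core of the interferon-stimulated response element, GAAA followed by any 2 bases and GAAA, was searched on both strands of the same promoter windows. It was found in 17 of the 23 list members with a window (73.9%), in 4.22% of the measured genes with one and in 3.57% of all windows. Of the 7 members highest on the GTF2I array 5 held it (71.4%), a share like that of the whole list. Among the 15 genes farthest above, 9 had a window and CEACAM1, OAS3, CXCL10 and PRKCQ held the element, 2 of them from outside the interferon list. Of the 13 genes farthest below with a window 0 did, which is close to the share of 4.22%. Both sets were chosen by their place beyond the other arrays, so these counts are a description. They say nothing of binding in these cells. The stretches of the 2 interferon genes farthest above are shown with the element in capitals, CXCL10 from chr4:76023687-76023740 (minus strand, bases −243 to −190) and OAS3 from chr12:112938309-112938362 (plus strand, bases −165 to −112).
CXCL10: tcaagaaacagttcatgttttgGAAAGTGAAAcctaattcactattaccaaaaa
OAS3: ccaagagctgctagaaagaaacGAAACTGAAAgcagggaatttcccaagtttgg

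A list of 47 neuronal and secretory vesicle genes was drawn up after the genes farthest above had been seen and contains several of them, so its counts are a description only. Of 41 measured, 35 were higher than siCON (60.4% of all measured genes), 9 by 1 or more (0.436%), and 14 were highest on the GTF2I array (4.47%). The IGF2R array was highest for 15 of them. The list median was 0.45, while the IGF2R and RASSF8 arrays reached 0.46 and 0.45 and the siCON arrays stood at −0.01 and 0.01. Of the 41 genes 20 were among the 7337 dimmest clusters, which themselves were higher than siCON on this array with a median of 0.21. With a trend on mean expression removed the list median was 0.25.

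STMN3, a microtubule regulator of neurons, measured 11.04 on the GTF2I array, 9.61 to 10.79 on the other knockdown arrays (median 10.11), and 9.26 and 9.28 on the siCON arrays. SCG3, a granin that loads secretory granules, was dim but apart, at 5.39 on the GTF2I array, 3.99 to 4.46 on the other knockdown arrays (median 4.16), and 4.08 and 4.02 on the siCON arrays. Both were highest on the GTF2I array, by 0.25 and 0.93, and the synaptic genes CPLX1, CPLX2, SYT4 and SYN1 and the granin SCG2 were so by 0.10 to 0.36. SV2A, a synaptic vesicle glycoprotein, went the other way and measured 9.47 on the GTF2I array, 10.02 to 10.71 on the other knockdown arrays (median 10.54), and 10.66 and 10.86 on the siCON arrays.

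REST, the repressor of neuronal genes outside neurons, measured 9.24 on the GTF2I array, 9.26 to 10.00 on the other knockdown arrays (median 9.76), and 9.90 and 9.97 on the siCON arrays. It was lowest on the GTF2I array by 0.02, next to the RASSF8 array, and its part in the levels of the neuronal genes was not tested. A list of REST and its corepressors was also added after seeing values. Of its 11 measured genes, 10 were lower than siCON with a median of −0.24, where 60.4% of all measured genes were higher. REST was the only one of the 11 that was lowest on the GTF2I array. On this list the other knockdown arrays had medians from −0.30 (IGF2R) to 0.03 (ZNF254), with a middle of −0.11. The siCON arrays stood at −0.04 and 0.04. The list was bright, with a middle mean level of 9.72. The 7337 brightest clusters were themselves lower than siCON on the GTF2I array, with a median of −0.08. The RE1 element bound by REST was searched on both strands as CAGCACC, any 2 bases and GGACAG. It was in 18 of 35116 promoter windows and in 11 of 11386 measured genes with a window. Of the 25 listed neuronal genes with a window 2 held it, SYN1 and GRIA2. Only SYN1 is described here, and a match of these letters says nothing of binding in these cells. SYN1, the vesicle protein synapsin I, measured 7.84 on the GTF2I array, 7.06 to 7.66 on the other knockdown arrays (median 7.37), and 7.17 and 7.23 on the siCON arrays. Its element is shown in capitals within chrX:47620052-47620107 (minus strand, bases −250 to −195).
SYN1: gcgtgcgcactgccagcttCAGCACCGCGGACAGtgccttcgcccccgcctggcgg

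**Figure D4:**
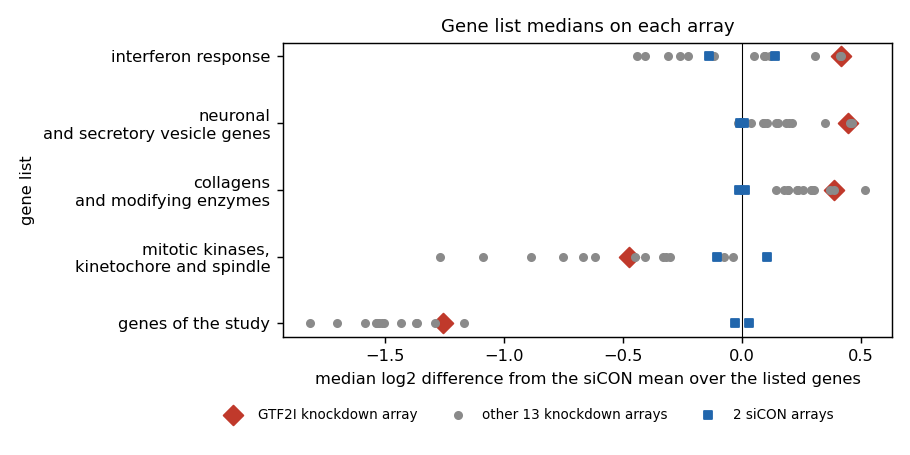
Median log2 difference from the siCON mean over the measured genes of 5 lists, on the GTF2I array (red diamonds), the other 13 knockdown arrays (grey points) and the 2 siCON arrays (blue squares). GTF2I stands at 0.42 for interferon response genes and 0.45 for neuronal and secretory vesicle genes, in both cases beside other knockdown arrays, and within the range of the other knockdowns for the remaining lists.

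The 7 measured genes reported in other systems as TFII-I targets (FOS, HSPA5, PDIA4, CALR, CCND1, KDR and GSC) were all higher than siCON, where 60.4% of all measured genes were. Their median was 0.08, against 0.11 for all measured genes. The other knockdown arrays had list medians of 0.03 to 0.53, with a middle of 0.16, and among them only ZNF429 was lower than GTF2I. On 0 of the 7 did the GTF2I array lie outside the other arrays, where it was lowest for 5.38% and highest for 4.47% of all measured genes. In lists this short, 0 is close to those shares. FOS, an immediate early transcription factor, measured 8.23 on the GTF2I array, 7.73 to 8.44 on the other knockdown arrays (median 8.13), and 7.81 and 7.80 on the siCON arrays. HSPA5, the chaperone BiP of the endoplasmic reticulum, measured 12.75 on the GTF2I array, 12.65 to 13.06 on the other knockdown arrays (median 12.93), and 12.60 and 12.46 on the siCON arrays. The GTF2I array fell inside the other knockdowns for both. Of 15 measured partners of TFII-I, such as the kinase BTK, the E-box factors USF1 and USF2 and the deacetylase HDAC3, 0 lay outside the other arrays. The median of the partners was −0.13, against −0.12 for the middle of the other 13 knockdown arrays.

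Of the 24 measured neighbours of GTF2I in 7q11.23, 13 were higher and 11 lower than siCON, with a median of 0.06, and 5 (20.8%) were lowest on the GTF2I array, against 5.38% of all measured genes. Other arrays came close to this count. The IGFBP2 array and siCON replicate 1 were each lowest for 4 of these genes, and the remaining arrays for 0 to 3. BCL7B, a subunit of the SWI/SNF chromatin remodeller, measured 10.58 on the GTF2I array, 10.79 to 11.52 on the other knockdown arrays (median 11.15), and 11.53 and 11.48 on the siCON arrays. POR, the electron donor of microsomal cytochromes P450, measured 9.50 on the GTF2I array, 9.72 to 10.17 on the other knockdown arrays (median 9.97), and 9.77 and 9.85 on the siCON arrays. These lay 0.21 and 0.23 below every other array, and CLIP2, RHBDD2 and TBL2 lay below by under 0.1.

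Many of the large differences from siCON were also present on the other knockdown arrays. On the GTF2I array 407 clusters were lower than siCON by 1 or more (1.85%) and 113 higher (0.513%), of which 172 were the lowest and 48 the highest of the 16 arrays. In 155 of the 407 (0.704% of clusters) and 41 of the 113 (0.186%) the other 13 knockdowns had a median in the same direction that was at least 0.5 times as large. All 14 knockdowns are set against the same 2 siCON arrays, so a siCON value that was high or low by itself moves all of them together. With siCON replicate 1 left out the shared counts were 191 lower and 89 higher, and with replicate 2 left out 251 lower and 83 higher. By overall profile the GTF2I array was nearest to ZNF528, ZNF708 and ZNF85, with a root mean square difference of 0.33 over all clusters for each, and farthest from ZNF429 and siCON replicate 1, with 0.45 for both.

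POSTN, the matrix protein periostin, measured 8.36 on the GTF2I array, 7.24 to 8.71 on the other knockdown arrays (median 7.86), and 9.64 and 10.64 on the siCON arrays. It was below both siCON arrays in all 14 knockdowns, and the siCON arrays differed widely for it. TGFB3, a TGF-beta ligand, measured 8.31 on the GTF2I array, 7.25 to 8.41 on the other knockdown arrays (median 7.79), and 9.27 and 9.68 on the siCON arrays, and was less far from siCON on the GTF2I array (−1.17) than the median of the others (−1.69). ENPP5, a membrane phosphodiesterase, differed from siCON by −1.98 against a median of −2.07 for the others, and DDAH1, which degrades methylated arginine, by −1.48 against −1.54. NEDD9, a focal adhesion scaffold, differed by −0.57 against −0.91, and so missed a difference of 1. SI, sucrase-isomaltase, was dim and differed by −1.35 against −1.56. For MRPL30, a mitochondrial ribosomal protein, the clusters disagreed. The cluster shared with C2orf15 differed from siCON by −1.87 against −2.06. The cluster shared with LIPT1 differed by −0.07, and the cluster of MRPL30 alone by −0.17.

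The other large shared decreases included RNF152, a lysosomal ubiquitin ligase that restrains mTORC1, SLC44A2, a choline transporter, and the potassium channel gene KCND2. RNF152 measured 6.59 on the GTF2I array, 6.43 to 8.22 on the other knockdown arrays (median 7.42), and 8.17 and 8.66 on the siCON arrays. SLC44A2 differed from siCON by −1.66 and KCND2 by −1.51, with medians of −0.99 and −1.22 in the others. QTMAN, a glycosyltransferase that modifies transfer RNA, was shared in direction but lowest on the GTF2I array, at 7.78 there, 8.24 to 8.78 on the other knockdown arrays (median 8.57), and 9.39 and 9.38 on the siCON arrays.

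Shared increases were led by SLFN5, a Schlafen family gene induced by interferon, which measured 8.85 on the GTF2I array, 7.77 to 9.72 on the other knockdown arrays (median 8.41), and 7.20 and 7.03 on the siCON arrays. PAPSS2, which makes the sulfate donor for proteoglycans, differed from siCON by 1.65 against 1.56 in the others, TMCO1, a calcium channel of the endoplasmic reticulum, by 1.38 against 1.35, and CDH11, a mesenchymal cadherin, by 1.29 against 1.21. KCNK3, a background potassium channel, measured 9.04 on the GTF2I array, 7.92 to 9.07 on the other knockdown arrays (median 8.35), and 7.38 and 7.65 on the siCON arrays. Only the ZNF254 array was higher.

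**Figure D5:**
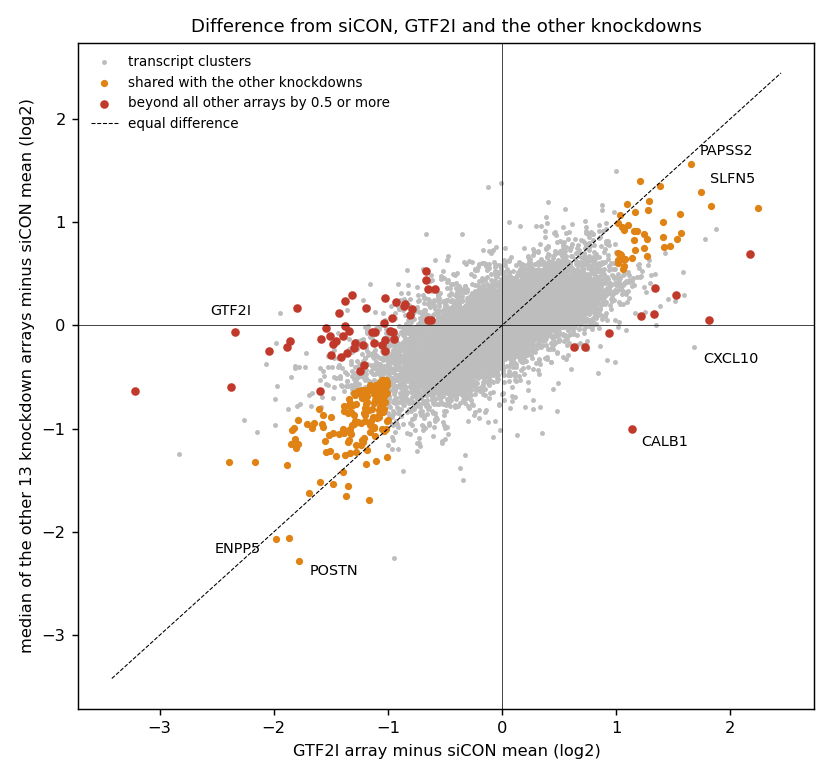
Difference from the siCON mean on the GTF2I array (x axis, log2) against the median difference of the other 13 knockdown arrays (y axis, log2), 1 point per transcript cluster; orange points are shared with the other knockdowns, red points lie at least 0.5 beyond all other arrays, and the dashed line marks equal differences. Both axes use the same siCON arrays. GTF2I and CALB1 stand off the dashed line, and POSTN and ENPP5 lie close to it.

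All 35 measured genes of mitotic kinases, kinetochore and spindle were lower than siCON on the GTF2I array, where 60.4% of all measured genes were higher. The list median was −0.48, against −0.45 for the middle of the other 13 arrays. Of the 35 genes 0 were lowest of 16, against 5.38% of all measured genes. On 1 of them, AURKA, the difference reached −1 (1.03% of all measured genes). The siCON arrays differed from each other on the same list, at 0.11 for replicate 1 and −0.11 for replicate 2. AURKA, the spindle pole kinase, measured 7.99 on the GTF2I array, 7.90 to 9.20 on the other knockdown arrays (median 8.61), and 9.08 and 8.98 on the siCON arrays. TYMS, which makes thymidylate for DNA synthesis, was lowest on the GTF2I array, at 10.02 there, 10.17 to 10.91 on the other knockdown arrays (median 10.56), and 10.92 and 10.81 on the siCON arrays. Of 34 measured DNA replication genes 1 was lowest on the GTF2I array (2.94%, against 5.38% of all measured genes). The median of that list was −0.21, against −0.30 for the middle of the other 13 arrays. The 20 measured G1 cyclins, kinases and inhibitors had a median of 0.02 on the GTF2I array, slightly above the range of −0.42 to 0.01 on the other knockdown arrays, and 0.01 and −0.01 on the siCON arrays. With each array centred on its median the value on the GTF2I array was −0.04. Of 31 measured collagens and their modifying enzymes 30 were higher than siCON with a median of 0.39, where 60.4% of all measured genes were higher. The other 13 knockdown arrays were above siCON on this list as well, from 0.14 (ZNF100) to 0.52 (IGF2R), with a middle of 0.26. COL4A1, a basement membrane collagen, was the 1 member that was highest on the GTF2I array, by 0.03 (3.23%, against 4.47% of all measured genes).

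Lists of markers of epithelial, leukocyte, endothelial and neuronal or glial cells held 6 to 8 measured genes each, most of them among the 7337 dimmest clusters. Their medians on the GTF2I array were 0.27 to 0.38 above siCON. All measured genes had a median of 0.11 there, and the 7337 dimmest clusters 0.21. The IGF2R array reached higher medians on the same lists, 0.43 to 0.61. On the GTF2I array 0 members of any of these lists lay outside the other arrays, where 4.47% of all measured genes were highest and 5.38% lowest. In lists this short, 0 is close to those shares. KITLG, the ligand of KIT, was lowest on the GTF2I array, at 6.96 there, 7.27 to 8.63 on the other knockdown arrays (median 8.10), and 7.84 and 7.86 on the siCON arrays. HAND1, a transcription factor of the GIST lineage, was higher than siCON by 1.10, against a median of 0.97 in the other knockdowns.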

How the data were processed

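The authors processed 16 Affymetrix Human Exon 1.0 ST arrays with RMA in the oligo package, summarized the core probes to the gene level and deposited log2 values of 22011 transcript clusters. The submitters' processing notes name hg19 and give no versions. Nothing was renormalized for the values reported. A platform table gave 14432 clusters 1 symbol, 2408 several and 5171 none, and a gene was represented by its brightest cluster with 1 symbol (14232 genes). The number of arrays, 1 for GTF2I, limits the precision.

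The GTF2I array was set against the siCON mean and against the range of the other 15 arrays. Called were differences of 1 or more, and distances of 0.5 or more beyond all other arrays. A difference was shared where the median of the other 13 knockdowns was at least 0.5 times as large in the same direction. Named genes were drawn mainly from the silenced genes, the genes of the study, the 15 farthest below and above, the 8 largest shared in each direction, and members of the lists. Not every shared gene or list member is named. The members and lists were chosen with earlier results of these data known, and 2 lists (neuronal and secretory vesicle genes, REST and its corepressors) were added after values had been seen. Alternatives were 3 scalings, filters on mean level, other thresholds, arrays left out, and limma 3.58.1 (R 4.3.3) for the GTF2I array against the other 15, checked on simulated data. Each of the other 15 arrays was left out for the distances, and each siCON array for the differences from siCON. Promoters came from RefSeq (GRCh38.p14). Python 3.11.15, numpy 2.4.6, pandas 2.3.3, statsmodels 0.14.6 and matplotlib 3.10.9 were used. The siRNA screen, drug tests and quantitative PCR were not analysed here.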

Additional observations from a re-analysis of the deposited data

How the results depend on the processing

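The main limits are 1 GTF2I array without a replicate, 2 siCON arrays labelled with different harvest times, and dim clusters, since 1 of the 10 clusters above all other arrays had a mean at or above the median. Counts of clusters beyond the other arrays by 0.5 or more stayed at 46 to 52 lower and 9 to 10 higher under the 3 scalings, and the 15 genes named on each side lay outside the other arrays under all of them. No call of a named gene turned direction. With any 1 of the other 15 arrays left out, the counts of clusters beyond the other arrays ran from 51 to 72 lower and from 10 to 16 higher. Differences from siCON were recounted only with 1 of the 2 siCON arrays left out. Those of 1 or more then ran from 409 to 526 lower and from 153 to 161 higher, and the shared ones from 191 to 251 lower and from 83 to 89 higher. The shared counts were not repeated without single knockdown arrays.

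Thresholds set the counts. A distance of 0.25 gave 262 lower and 76 higher, a distance of 1 gave 7 and 1, and any distance 1289 and 910. Among clusters with a mean at or above the median, 1 cluster was above all others by 0.5 or more, and 5 among those at or above the lower quartile. In limma, which here compares this array with the others and not a condition, an adjusted p under 0.05 was reached by 11 decreases and 2 increases, and an unadjusted one by 682 and 294. For differences from siCON, a limit of 0.58 gave 1606 lower and 1155 higher, a limit of 2 gave 10 and 2, and a distance of 1 or more beyond both siCON arrays gave 264 and 58. With the median of the other 13 knockdowns as the reference, an alternative chosen after seeing the data, they were 143 and 34. Clusters at or above the median level held 144 and 47 of them, and those at or above the lower quartile 240 and 71. Shared decreases numbered 234 with the trend on mean expression removed and 84 at or above the lower quartile, shared differences 49 lower and 23 higher at or above the median, and 51 and 13 where the other knockdowns had a median of 1 or more.

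With the trend removed, list medians moved to −0.046 for TFII-I partners, 0.28 for collagens, 0.16 for laminins and integrins, 0.18 for smooth muscle genes, 0.19 for leukocyte, 0.065 for endothelial and 0.072 for neuronal and glial markers, and 0.25 for neuronal and secretory vesicle genes. With quantile normalization they were −0.037 for TFII-I partners and −0.049 for the RNAi machinery. With all clusters that name a gene they were 0.073 for hypoxia targets, whose sign thereby changed (−0.013 otherwise), 0.33 for metallothioneins and −0.46 for the silenced genes. The causes were not tested. The interferon list had 7 to 9 and the neuronal list 14 to 18 members highest on the GTF2I array under the scalings. POSTN differed from siCON by −2.28 without siCON replicate 1 and by −1.28 without replicate 2. No paired analysis was possible because GTF2I has 1 array and the results come from no test.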

Other observations

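Of the 51 clusters that lay at least 0.5 below all other arrays on the GTF2I array, 22 carry no gene symbol in the platform table and are given here as values. The one with the largest difference from siCON, cluster 3475034, measured 3.60 on the GTF2I array, 4.64 to 7.04 on the other knockdown arrays (median 6.18), and 6.79 and 6.85 on the siCON arrays. Cluster 3831277 measured 7.44 on the GTF2I array, 8.73 to 9.78 on the other knockdown arrays (median 9.41), and 9.32 and 9.16 on the siCON arrays. By the order of the identifiers it belongs to a run of 19 clusters without a symbol that follows the cluster of ZNF146. Of these 19, which were looked at after their values were seen, 9 were lowest on the GTF2I array and 5 were so by 0.5 or more, where 5.86% of all clusters were lowest. The platform table does not say which transcripts they belong to.

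The following lists had medians within the range of the other knockdown arrays. On the GTF2I array 60.4% of all measured genes were higher than siCON. Of 24 measured general transcription factors, 22 were lower, and 1 was lowest of 16 (4.17%, against 5.38% of all measured genes). Their median was −0.29, against −0.38 to 0.01 on the other knockdown arrays (middle −0.17). Of 41 measured core and linker histones, 35 were lower than siCON. Their median was −0.29, against −0.65 to −0.03 (middle −0.24). Of 18 genes of cholesterol synthesis and uptake 14 were lower. Their median was −0.32, against −0.44 to 0.14 (middle −0.31).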
